A study of Mus musculus with 8 samples.

Results

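The probes mmu-miR-379, mmu-miR-379*, mmu-miR-411, mmu-miR-411*, mmu-miR-299 and mmu-miR-299*, 6 in all for both arms of 3 hairpins, were examined among the 1135 miRNA probes of a mouse array, of which 1096 are for mouse miRNAs. They were chosen by name, as the probes for any arm of these 3 hairpins, with the comparison of the treatment groups already known. Each probe was spotted 1 time per array. All 6 were among the 1070 probes that exceeded the blank spots on at least 4 of the 8 arrays and entered the fit, so no probe was lost to that filter. The arrays were hybridised with liver RNA of male C57BL/6N mice, 8 weeks old at the start, kept on a diet that lacks methionine and choline (MCD) and is used to induce steatohepatitis. In 4 mice metformin, an oral biguanide, was given in the drinking water at 2.4 mg/day for 15 weeks (MCD + metformin), and 4 mice received the diet without the drug (MCD). The diet was shared by both groups, so these values hold no mouse on normal chow, and mice on an MCD diet lose weight, which limits the diet as a model of the human disease.

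A miRNA hairpin is cut to a duplex whose arms, 5p and 3p, can each be loaded into the silencing complex, and bases 2 to 8 of the loaded arm, its seed, direct target choice. On the array an asterisk marks the arm that was held to be the minor one when the array was designed. The 3 hairpins lie in the imprinted Dlk1-Dio3 region, where the miRNAs are made from the maternally inherited chromosome as long transcripts that hold many hairpins. The region is known for high expression in the embryo, the placenta and the brain and for low expression in the adult liver.

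In RefSeq (GRCm38.p6) the hairpins stand head to tail on the plus strand of chromosome 12 and together span 1641 bases. Mir379 lies at chr12:109709060-109709125, Mir411 at chr12:109710175-109710256 and Mir299a, the current name of the miR-299 hairpin, at chr12:109710638-109710700. Relative to the start of Mir379, the next annotated hairpin upstream, Mir882, begins at -26.9 kb and the next one downstream on this strand, Mir380, at 2.74 kb. Mir379, Mir411 and Mir299a therefore open the dense series of hairpins that continues to Mir410, at 34.7 kb, and beyond. The annotated non-coding gene Mirg, after which this polycistron is named, starts only 25.9 kb downstream, and the 3 hairpins overlap no other gene than miRNAs in this annotation. A second hairpin, Mir299b, is annotated on the opposite strand over the same bases, at chr12:109710645-109710693.

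The mature sequences of the 6 arms are shown because their similarity decides which of them an array can tell apart. They come from RefSeq. Each probe was assigned to its arm from the miRBase accession that the array gives for it, by general knowledge of that database, since no table used here pairs these accessions with arms. The seed is in capitals.
miR-379 (5p arm): uGGUAGACuauggaacguagg
miR-411 (5p arm): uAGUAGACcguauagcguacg
miR-299* (5p arm): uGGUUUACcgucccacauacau
miR-379* (3p arm): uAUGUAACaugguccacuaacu
miR-411* (3p arm): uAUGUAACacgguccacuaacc
miR-299 (3p arm): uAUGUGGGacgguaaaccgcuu
miR-1193-5p: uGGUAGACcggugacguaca
miR-299b-3p: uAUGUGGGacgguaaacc
The asterisk thus stands on the 3p arm for miR-379 and miR-411, but on the 5p arm for miR-299.

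The 2 arms miR-379* and miR-411* share the seed AUGUAAC and are identical at 20 of 22 positions. Counted from the 5′ end, they differ by U10C and U22C, with miR-379* first. Among the mature mouse miRNAs in the RefSeq table no other carries this seed. The 5p arms of miR-379 and miR-411 agree at 14 of 21 positions, and within the first 8 bases they differ only by G2A, which lies in the seed. The seed of miR-379 recurs in miR-1193-5p, a miRNA of the same polycistron, and that of miR-411 in miR-7229-5p, which was not among the probes analysed here. The 2 arms of miR-299 contain a run of 18 bases that is exactly complementary, and all 18 bases of miR-299b-3p, from the opposite strand, are contained in miR-299. Likewise all 21 bases of miR-299b-5p are contained in miR-299*. The probe sequences are not given in the sources used here. Whether the probe for miR-379* also binds miR-411* was therefore not tested, and these 2 cannot be taken as independent measurements. Nor was it tested whether the probes for miR-299 and miR-299* also bind the arms of miR-299b, so their signals may include these.

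Most of these arms were dim. A probe is called detected here on an array when its signal is above a limit set by the 1818 blank spots (their mean plus 2 SD), which lay at 242 to 255 scanner units on the metformin arrays and at 247 to 259 on the MCD arrays. A stricter limit, the mean of the 24 negative control spots plus 2 SD, lay at 276 to 301 on the metformin arrays and at 297 to 315 on the MCD arrays. miR-379 and miR-411* were detected on all 8 arrays, miR-411 and miR-299 on 7, and miR-379* and miR-299* on 6. The last 2 were each detected on 4 MCD and 2 metformin arrays. They therefore met the limit for the fit through the MCD arrays, the higher group. Above the negative controls were miR-379 on 6 arrays, miR-411 on 5, miR-411* on 4, miR-299* on 3, miR-379* on 2 and miR-299 on 0. No probe of the 6 was saturated on any array. For comparison, the hepatocyte miRNA miR-122, which marks the tissue as liver, had signals of 20702 to 27623 on the metformin arrays and 17416 to 19934 on the MCD arrays.

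**Figure D1:**
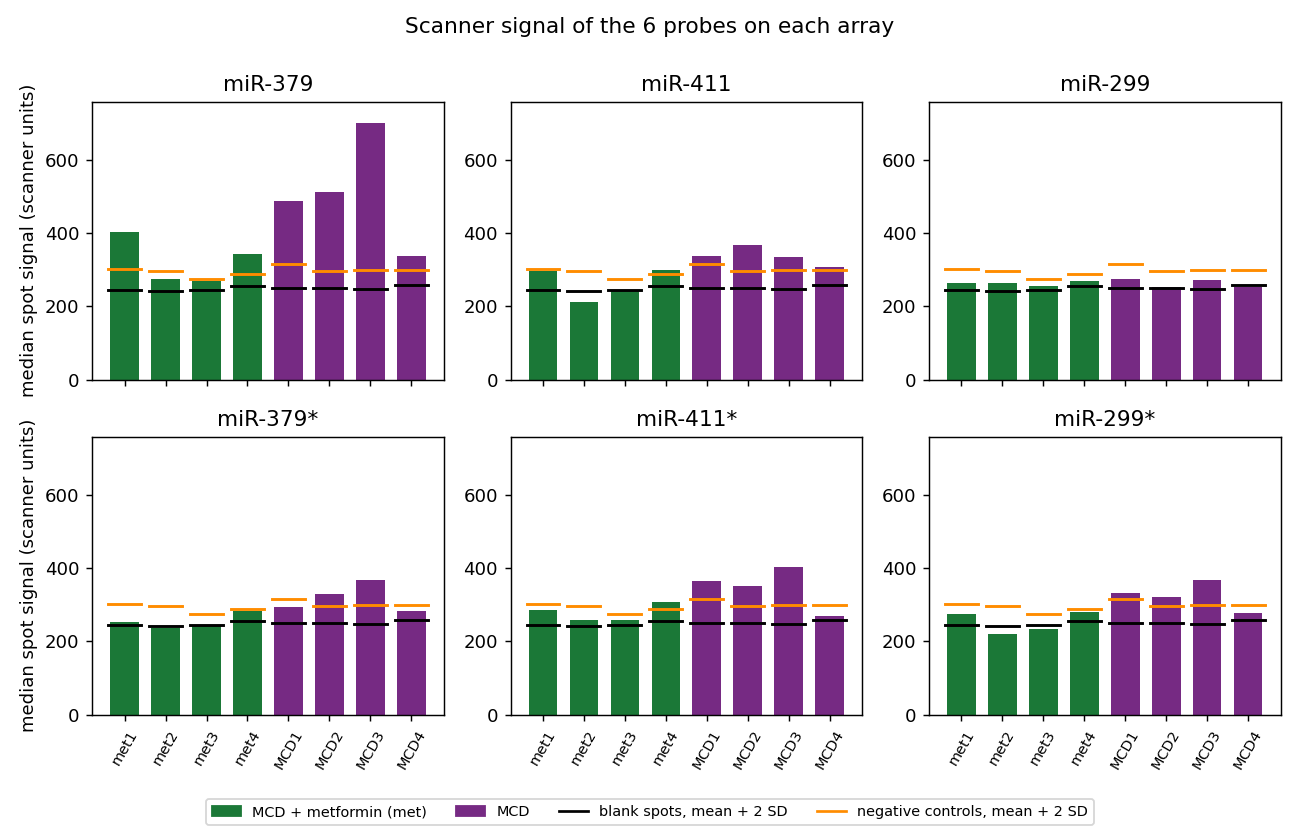
Median signal of each of the 6 probes in scanner units (vertical axis, starting at 0) on each array (horizontal axis; met, MCD + metformin, green; MCD, purple), before background correction. Black and orange lines mark, for each array, the mean + 2 SD of the blank spots and of the negative control spots. miR-379 stands above both lines on 6 of 8 arrays, whereas miR-299 is below the orange line on all 8.

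miR-379, the 5p arm of the first hairpin, had the highest signals of the 6 probes. Its signal was 403, 274, 269 and 344 in metformin replicates 1 to 4, against 487, 512, 702 and 339 in MCD replicates 1 to 4. Metformin replicates 2 and 3 were the lowest arrays and MCD replicate 3 the highest, and the groups overlapped, since metformin replicates 1 and 4 lay above MCD replicate 4. The mean signal was 323 ± 63.7 in MCD-fed mice treated with metformin and 510 ± 149 in MCD-fed mice (SD, n = 4 each). After background correction and scaling, the log2 fold change was -0.95 (standard error 0.26), or 0.516-fold.

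miR-379*, the 3p arm of the same hairpin, had signals of 252, 236, 242 and 283 in the metformin replicates, against 293, 330, 368 and 283 in the MCD replicates. It had the same signal, 283, in metformin replicate 4 and MCD replicate 4, and on the normalized scale metformin replicates 1 to 3 were lower than the lowest MCD array. Its log2 fold change was -0.49 (standard error 0.14). Metformin replicates 2 and 3 were not above the blank spots for this probe, so the size of the difference is limited by the dim signal.

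miR-411, the 5p arm of the second hairpin, had signals of 297, 213, 245 and 299 with metformin, against 339, 367, 336 and 309 in MCD-fed mice. All metformin arrays lay below all MCD arrays, with the smallest gap between metformin replicate 4 (0.03 on the normalized log2 scale) and MCD replicate 4 (0.12). The log2 fold change was -0.64 (standard error 0.18). On metformin replicate 2 the signal of 213 was not above the blank spots.

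miR-411*, whose sequence is close to that of miR-379*, had signals of 287, 258, 259 and 309 with metformin and 366, 351, 404 and 270 in MCD-fed mice. MCD replicates 1 to 3 were above every metformin array, but MCD replicate 4 lay below all 4 of them on the normalized scale. The log2 fold change was -0.50 (standard error 0.19), and the SD of the normalized values was 0.20 with metformin and 0.48 in MCD-fed mice. Without MCD replicate 4 the log2 fold change was -0.74 (standard error 0.13), a widening that follows from leaving out the lowest MCD array. Without MCD replicate 1, 2 or 3 it was -0.45, -0.45 and -0.38.

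miR-299*, the 5p arm of the third hairpin, had signals of 275, 221, 235 and 281 with metformin, against 333, 322, 368 and 279 in MCD-fed mice. The raw signals overlapped, at 281 in metformin replicate 4 and 279 in MCD replicate 4, and the normalized values did not, by a margin of only 0.0025. The log2 fold change was -0.65 (standard error 0.16). Metformin replicates 2 and 3 were not above the blank spots.

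miR-299, the 3p arm, did not show this difference. Its signals were 263, 263, 257 and 269 with metformin and 275, 252, 272 and 252 in MCD-fed mice, with means of 263 ± 4.90 and 263 ± 12.5 (SD, n = 4 each). The groups overlapped, all 8 values were below the negative controls, and MCD replicate 4 was not above the blank spots. The log2 fold change was 0.11 (standard error 0.10). Without background correction it was 0.04 (standard error 0.04). The local background around the spots was lower on the metformin arrays.

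**Figure D2:**
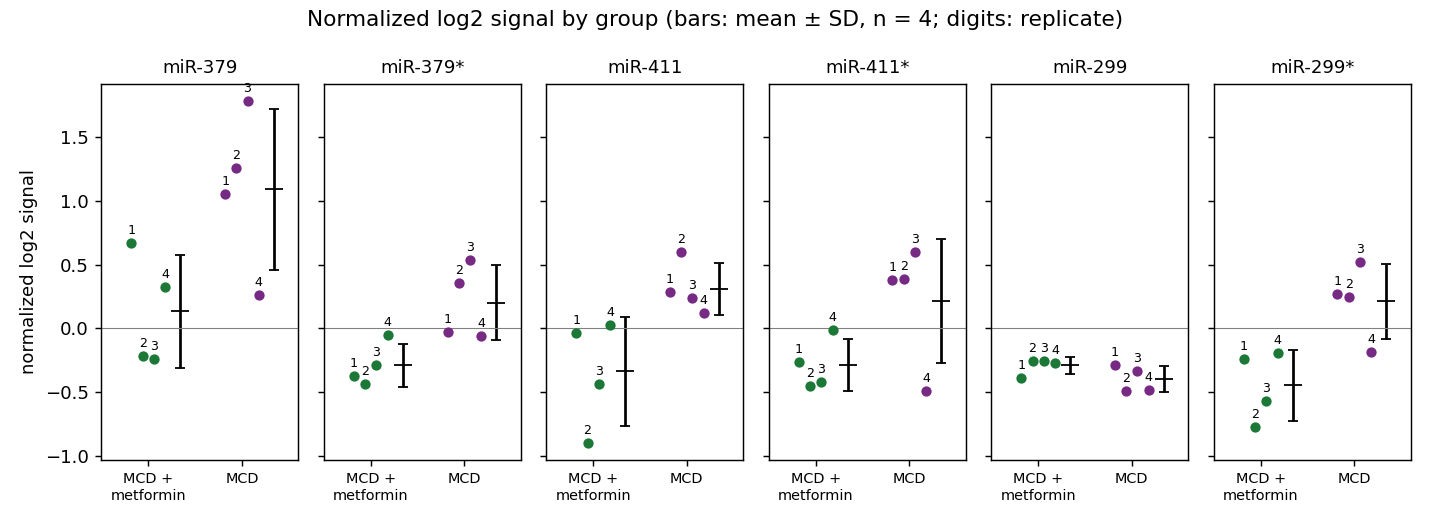
Normalized log2 signal of each probe (vertical axis; 0 is the array's median over the 451 probes that were above the blank spots throughout) for MCD + metformin (left in each panel) and MCD (right). Points are arrays with their replicate number, bars show mean ± SD (n = 4). MCD replicate 4 is the lowest MCD array in 5 of the 6 panels, and the miR-299 panel shows no lower level with metformin.

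Counted together, limma gave 5 of the 6 probes a lower level with metformin and 0 a higher one (unadjusted p under 0.05), where 3.08% of all 1070 probes were called lower and 6.36% higher. These 5 are both arms of miR-379, both arms of miR-411 and the 5p arm of miR-299. The hairpins were picked with this comparison known, so the counts describe them and support nothing further. After Benjamini-Hochberg adjustment over all probes 0 of the 6 passed, as did 0 of all 1070 (0%), the smallest adjusted p from limma being 0.195. The log2 fold change was below 0 for 5 of the 6 and for 41.6% of all probes. The groups did not overlap, with metformin lower, for 2 of the 6, miR-411 and miR-299*, against 1.96% of all probes. The median log2 fold change was -0.57 over the 6 probes and 0.03 over all probes tested. In bulk liver, fewer cells that make these miRNAs and less of them per cell cannot be told apart.

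The size of the differences depended on the background correction. With an offset of 0 in place of 50, the log2 fold change was -1.23 for miR-379 and -1.05 for miR-411. The median over the 6 probes was then -0.90, whereas it was -0.31 without any correction. Plain subtraction of the local background gave a median of -0.59, and subtraction of the blank spots with offset 50 gave -0.78. In the main fit it was -0.57. In the deposited table of normalized intensities, miR-379 had 158, 55.4, 53.2 and 122 in the metformin replicates, against 244, 274, 462 and 111 in the MCD replicates. There miR-299* was left empty for metformin replicates 2 and 3, miR-411 and miR-379* for metformin replicate 2, and miR-299 for MCD replicate 4, so that fits to that table omit these arrays for these probes.

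The spread among the mice followed one order in most of the probes. Of the 5 probes other than miR-299, MCD replicate 4 was the lowest MCD array in 5 and MCD replicate 3 the highest in 4. In the treated group, metformin replicate 2 was the lowest in 4 and metformin replicate 4 the highest in 4. The mean normalized log2 value of these 5 probes was -0.05, -0.55, -0.39 and 0.02 in metformin replicates 1 to 4, against 0.39, 0.57, 0.73 and -0.07 in MCD replicates 1 to 4. MCD replicate 4 thus lay among the metformin arrays, below metformin replicates 1 and 4. Without MCD replicate 4, limma again called 5 of the 6 probes lower before adjustment, where 3.55% of all probes were. After adjustment it then called 3 of the 6, namely miR-379, miR-411* and miR-299*, and 0.841% of all probes. Leaving out the lowest array of the MCD group widens the difference by construction, so these calls are no further support. With any of the other 7 arrays left out instead, limma called 0 of the 6 after adjustment (lowest adjusted p = 0.149), and 4 to 5 before it. MCD replicate 4 had 868 detected probes, against 848 to 1018 on the metformin arrays and 947 to 970 on the other MCD arrays. It had the highest mean of the blank spots of the 8 arrays, and 182 of its cells were empty in the deposited table, more than on any other array. The part of these measures in its low values was not tested.

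To describe how the arms moved together apart from treatment, each value was taken as its deviation from the mean of its own group. Over the 8 arrays Pearson's r between miR-379 and miR-299* was 0.93, and between miR-411* and miR-299* it was 0.88. For the 10 pairs without miR-299, r ran between 0.46 and 0.93 (median 0.72). For the 5 pairs with miR-299 it ran between -0.37 and 0.40 (median 0.09). Arms of the same hairpin were not closer than arms of different hairpins in these values, with r = 0.68 for the arms of miR-379, 0.49 for those of miR-411 and 0.16 for those of miR-299. These values are descriptions over arrays that share 1 scaling, and 1 pair, miR-379* and miR-411* (r = 0.73), also shares most of its sequence.

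**Figure D3:**
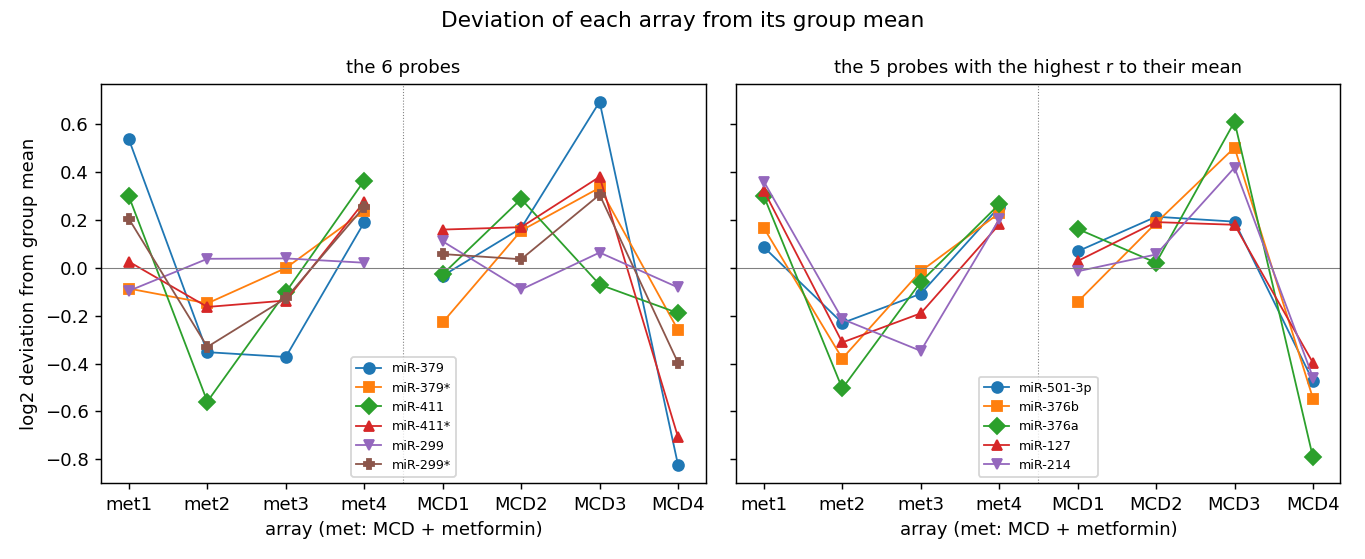
Deviation of each array from the mean of its group on the normalized log2 scale (vertical axis) for the 6 probes (left) and the 5 other probes most like them (right), by array (met, MCD + metformin). Lines join arrays of a group only to aid the eye. MCD replicate 4 is below its group mean for all 11 probes shown, and metformin replicate 4 above its own.

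Among the other 1064 probes tested, the 5 whose deviations most resembled the mean of the 6 were miR-501-3p (r = 0.97), miR-376b (0.96), miR-376a (0.96), miR-127 (0.94) and miR-214 (0.93), over 8 arrays. With the arrays farthest from the median, MCD replicate 4 and metformin replicate 2, left out, r was between 0.81 and 0.92 for these 5. The median r over the 1064 probes was -0.08. miR-376b, miR-376a and miR-127 are made from the same region, whereas miR-501 is not, and miR-214 marks hepatic stellate cells and other mesenchymal cells. miR-501-3p was above the negative controls on 1 array only and differed by 0.04 on the log2 scale (standard error 0.15), so likeness between mice did not entail a difference between the groups. For miR-376a, signals were 324, 238, 266 and 319 with metformin and 498, 445, 619 and 324 in MCD-fed mice, with the same low arrays as for miR-379. For miR-214 they were 356, 268, 252 and 330 with metformin and 359, 359, 437 and 293 in MCD-fed mice, and the groups overlapped.

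The 35 other hairpins of the polycistron had 69 probes, of which 66 were tested. At an unadjusted p under 0.05 from limma 6 were lower with metformin and 1 higher, or 9.09% lower against 3.08% of all probes, and the median log2 fold change was -0.04. The lower ones were miR-376a (log2 fold change -1.08, standard error 0.24), miR-376b (-0.80, standard error 0.19), miR-154* (-0.54, standard error 0.14), miR-410 (-0.50, standard error 0.13), miR-541 (-0.34) and miR-300 (-0.29), and the higher one was miR-543* (0.35). Of the 69 probes, 49 exceeded the negative controls on 0 arrays, and for these a difference may not be detectable. The hairpin that follows miR-299a, miR-380, had log2 fold changes of -0.22 (standard error 0.11) for miR-380-5p and 0.17 (standard error 0.12) for miR-380-3p, neither past that threshold. miR-1193-5p, which shares its seed with miR-379, had signals of 265, 244, 260 and 248 with metformin and 246, 262, 256 and 253 in MCD-fed mice, which gave a difference of 0.10 (standard error 0.11) in log2, and exceeded the negative controls on 0 arrays.

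**Figure D4:**
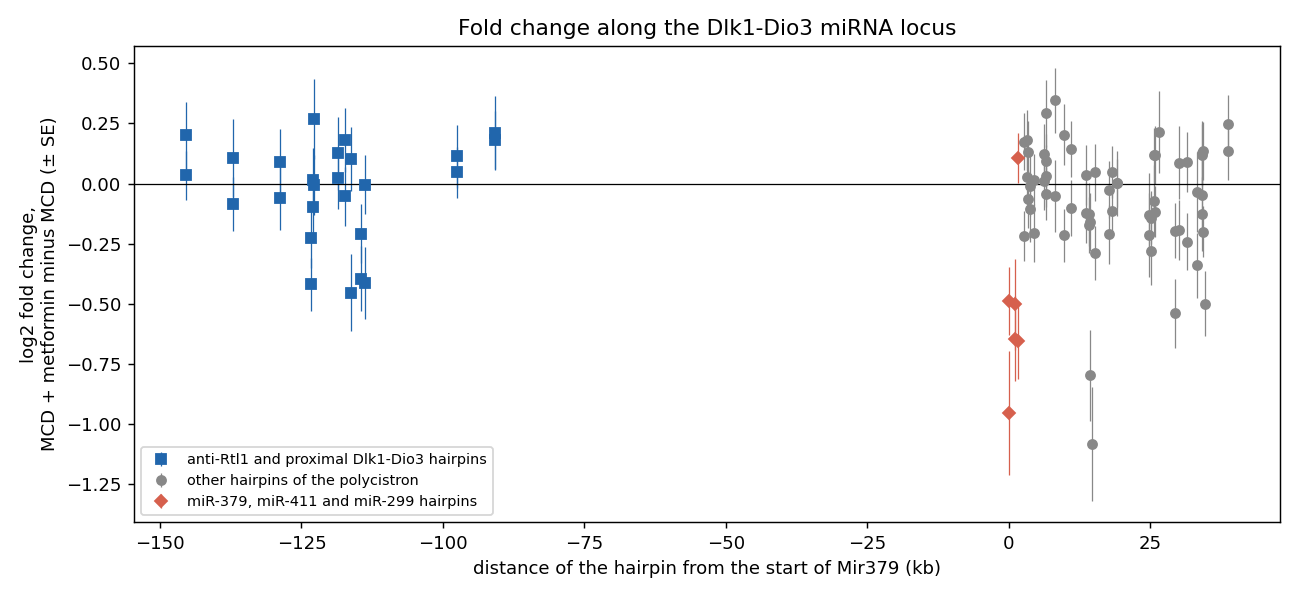
Log2 fold change, MCD + metformin minus MCD, with its standard error (vertical axis) for each tested probe of the Dlk1-Dio3 miRNAs that has a RefSeq hairpin, by the distance of the hairpin from the start of Mir379 in kb (horizontal axis). Red diamonds are the miR-379, miR-411 and miR-299 probes, grey circles the other hairpins of the polycistron and blue squares the hairpins upstream. Of the 6 diamonds, 5 lie below 0 at the left end of the polycistron, and most grey circles lie near 0.

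Upstream, 26 probes of the anti-Rtl1 and other proximal hairpins were tested. At the same threshold 4 (15.4%) were lower, against 3.08% of all probes, and 0 were higher. The lower ones were miR-337-3p (log2 fold change -0.42, standard error 0.11), miR-434-5p (-0.40, standard error 0.14), miR-127 (-0.45, standard error 0.16) and miR-136 (-0.41, standard error 0.15). The median log2 fold change over the 26 was 0.02. Of these 26 probes, 17 exceeded the negative controls on 0 arrays, and for these a difference may not be detectable. No test of a difference between the 3 hairpins and the rest of the locus was made, because the 3 were chosen with these values known.

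The arrays also held miRNAs known to mark liver cell types, and their calls are given at the same threshold, at which 3.08% of all probes were lower and 6.36% higher. For stellate cells and fibroblasts, 2 of 9 probes tested were lower with metformin and 0 higher. They were miR-199b*, at -0.51 in log2 fold change (standard error 0.24), and the common probe of miR-199b and miR-199a-3p, with -0.70 (standard error 0.30). For biliary epithelium, 1 of 9 was lower, miR-141 (-0.43, standard error 0.17), and 1 higher, miR-200b* (0.25, standard error 0.11). For leukocytes, 1 of 8 was lower, the myeloid miR-223 (-0.60, standard error 0.22), and 0 were higher. For hepatocytes, 5 of 9 were higher and 0 lower, among them miR-194 (0.52, standard error 0.13) and miR-122 (0.44, standard error 0.11). Both endothelial probes, the 2 arms of miR-126, were higher, and of the 3 erythroid and 9 neuronal probes tested 0 were called in either direction. None of these probes passed after adjustment over all probes.

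The summed level of the stellate cell and fibroblast probes, in multiples of the median detected probe, was 32.5, 20.1, 17.9 and 25.7 in metformin replicates 1 to 4, against 27.0, 25.3, 41.9 and 20.6 in MCD replicates 1 to 4. That of the 10 biliary probes was 18.02, 9.12, 9.86 and 15.95 in the metformin replicates, against 13.3, 15.95, 23.2 and 11.4 in the MCD replicates. In both lists, as for miR-379, the sum was lower in metformin replicates 2 and 3 than in the other 6 arrays, highest in MCD replicate 3, and lowest within the MCD group in replicate 4. Unlike for miR-379, the sum of both lists in metformin replicate 1 was above that in MCD replicates 1, 2 and 4. For miR-379, metformin replicate 1 lay above MCD replicate 4 only. Of these probes, 5 of 9 and 2 of 10 exceeded the negative controls on all arrays. The leukocyte probes summed to 7.79 to 9.62 with metformin and to 8.77 to 12.05 in MCD-fed mice, also highest in MCD replicate 3. The hepatocyte probes summed to 197 to 260 with metformin and to 158 to 172 in MCD-fed mice, without overlap. The endothelial probes summed to 31.8 to 37.4 with metformin and to 24.6 to 30.7 in MCD-fed mice, and the erythroid probes to 7.60 to 13.5 and to 5.36 to 13.2. Of the 10 neuronal probes, which summed to 7.31 to 8.13 with metformin and to 7.39 to 8.03 in MCD-fed mice, 7 exceeded the negative controls on 0 arrays. The part of these cell types in the values of the 3 hairpins was not tested.

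The local background was a technical measure that differed between the groups. At the spots of the 6 probes it averaged 143 ± 3.91 on the metformin arrays and 163 ± 2.39 on the MCD arrays (SD, n = 4 each), without overlap (two-sided exact permutation test, p = 0.0286, the smallest p that 4 arrays against 4 allow; adjusted p = 0.1 over 7 technical measures). The metformin arrays lay at 35240 to 35270 in the vertical coordinate of the scanned image and the MCD arrays at 3680 to 3690, so the position of the array and the treatment cannot be told apart. The mean of the blank spots was 220 ± 5.78 with metformin and 227 ± 4.14 in MCD-fed mice (SD, n = 4 each), and these ranges overlapped (two-sided exact permutation test, p = 0.114). Whatever the correction, the 5 probes kept a negative log2 fold change and miR-299 a positive one, in each setting in which they were tested. Every setting used these same arrays, so the unchanged signs cannot separate the treatment from the position of the array.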

How the data were processed

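Liver RNA of 4 MCD-fed mice treated with metformin and of 4 MCD-fed mice was labelled with Hy5 and hybridised, 1 array per mouse. The sample labels gave the groups and the replicate numbers. The authors scanned each array of 3136 spots and deposited, per spot, a median intensity and a median local background, both linear and not normalized. The authors also deposited a table of normalized intensity. In it, each array was a straight line of the scanner signal (largest deviation 0.00528), with a median of 44.5 to 45 and dim probes empty. It was not centred per probe. Signals printed here are deposited intensity values before correction.

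With R 4.3.3 and limma 3.58.1, signals were background-corrected (normexp, offset 50), taken to log2 and shifted by each array's median over the 451 probes that passed the blank-spot limit on 8 of 8 arrays. lmFit and eBayes, unpaired and two-sided, were run on the 1070 probes detected on at least 4 arrays. Log2 fold changes are MCD + metformin minus MCD. The functions were tested on simulated data. Per the study's methods RNA was extracted from each liver, and precision is limited by having 4 arrays per group.

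The hairpins and lists were chosen with earlier results of these data known. The rule for naming took, besides the 6 probes, up to 4 probes with the smallest p of the 2 locus lists and of the hepatocyte, stellate, endothelial and leukocyte lists, the 5 most alike, and probes sharing a seed. Of the cell type lists only some of these are named. Chosen after their values were seen were miR-541, miR-300, miR-543*, miR-141, miR-200b* and the arms of miR-380. Sequences and positions are RefSeq's, matched for 6 of 6 arms. Of 35 polycistron hairpins, 2 (miR-544 and miR-666) had no entry. Alternatives were 5 other background corrections, 3 scalings, 3 filters, the deposited table, the methods' t-test, another variance model, a replicate block and leaving out each array.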

Additional observations from a re-analysis of the deposited data

Results flagged for a closer look

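Among the 6 probes and their mean, 1 group held an array far from the others. For miR-299 on the metformin arrays, the normalized log2 value was -0.39 in replicate 1 and -0.25, -0.25 and -0.27 in replicates 2 to 4, so that the gap to the nearest array was 0.867 of the whole range, above the critical value of 0.829 for 4 samples. Chance alone flags about 1 in 20 groups, and 14 were examined. The signal of this probe in metformin replicate 1 was 263, below the negative controls, like that of the other 3 metformin arrays.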

How the results depend on the processing

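The signs of all 6 log2 fold changes were unchanged under every alternative in which the probe was tested. miR-379, miR-379*, miR-411 and miR-299 also stayed on their side of the unadjusted threshold. miR-411* lost it under quantile normalization, the methods' t-test, the other variance model and without MCD replicate 1, 2 or 3, and miR-299* in the deposited table; the cause was not tested. The count of lower probes was 4 to 5 when single arrays were left out. It was 2 with only probes detected on all 8 arrays and 3 with the negative control filter, which tested 2 and 3 of the 6. Under the second filter, miR-379, miR-411 and miR-411* all passed mostly on MCD arrays, the higher group. In that order, they exceeded the negative controls on 4, 4 and 3 MCD arrays and on 2, 1 and 1 metformin arrays. Their calls there are therefore no further support. The median log2 fold change, -0.57, was -0.72 to -0.45 without single arrays. It was -0.90 with offset 0, -0.31 without background correction and -0.96 in the deposited table. The count over the other polycistron probes was 6, and 5 to 9 without single arrays, with 9 without replicate 4 of either group. It was 11 without scaling and 12 in the deposited table. With these filters it was 3 of 18 and 2 of 5 tested, against 6 of 66. Over all probes the count of lower ones was 33, and 50 with quantile normalization, 60 without scaling, 15 of 451 and 10 of 221 tested with these filters and 51 in the deposited table. Deviations of the 4 same-numbered pairs correlated at -0.30 to 0.03, and those of differently numbered arrays at -0.25 to 0.30. With so few pairs these values cannot decide whether the numbers pair the samples. The replicate block left 5 of the 6 probes and 6 of the other polycistron probes lower. Scaling to 28S and a block for date or slide were not run, since 0 probe names and 0 columns give them. The weak signals limit every size given here.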
